A study of Mus musculus with 112 samples.

Results

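The genes that write and erase DNA methylation (DNAme) were examined for their own methylation in mouse sperm and prefrontal cortex. The 10 genes were Dnmt1, Dnmt3a, Dnmt3b, Dnmt3l, Uhrf1, Tet1, Tet2, Tet3, Tdg and Mbd4, out of 55413 annotated genes. Every CpG cytosine from 2000 bp upstream of a gene's start to its end was taken from the mm10 (GRCm38) annotation. Of the 16148 such cytosines in the reference, 2384 had a value in at least 1 library, out of 4388579 positions with a value in the whole series. The genes were listed for their function and not for any measured value.

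The enzymes act in sequence. DNMT3A and DNMT3B place new methyl groups on CpGs, DNMT3L is their catalytically inactive partner in germ cells, and DNMT1 copies the pattern after replication once UHRF1 has brought it to hemimethylated DNA. TET1, TET2 and TET3 oxidise 5-methylcytosine, TDG removes the oxidised bases, and MBD4 repairs the T:G mismatches left by deamination. In the male germ line the pattern is erased and then set anew before birth, with DNMT3L needed for the second step, whereas DNMT3A and TET proteins remain active in neurons. CpG islands, the CpG-dense stretches at many gene starts, are usually kept free of methylation.

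Reduced representation bisulfite sequencing (RRBS) had been run on 112 libraries. The sires (F0) gave sperm only: unexposed C57BL/6J wild types (control WT, n = 10), wild types exposed to cigarette smoke (CS) and collected within days of its end (smoked WT, n = 9), and smoke-exposed wild types kept without smoke for 3 successively longer times (recovery 1, n = 9; recovery 2 and recovery 3, n = 10 each). Sires also included unexposed (n = 10) and CS-exposed (n = 9) Nrf2-/- males, which lack functional NRF2, the transcription factor of the antioxidant response, in every tissue. By the study's methods exposed and control males were age matched when CS began, in young adults, and control WT males were collected together with the smoked WT group, so that recovery males were older than their controls. The sons (F1) gave sperm when the sire was control WT (n = 6) or smoked WT (n = 7). Their prefrontal cortex, called brain below, was taken for each of the 4 kinds of sire, WT and Nrf2-/- with and without CS (n = 8 each). A sample titled as control WT brain carried the Nrf2-/- strain label; it was grouped by its title, and its column is not known. Whether sperm and brain libraries came from the same sons, and which sons shared a sire, is not given by the labels. Groups of sons carry the name of the sire's group. The sons were not exposed themselves, all had a CAST/EiJ mother, and those of Nrf2-/- sires carried 1 targeted allele by the breeding described. Where CAST/EiJ DNA lacks a reference CpG, a value from a son can mix sequence with methylation. Sperm is a single cell type, but prefrontal cortex mixes neurons and glia, so that a brain level averages over cell types.

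The methylation percent of a cytosine is the share of reads that stayed unconverted. Bisulfite also leaves hydroxymethylcytosine, a base made by TET oxidation, unconverted, so a percent counts it together with methylcytosine. Its share in sperm or brain was not measured, so differences between these tissues are differences in the sum. Neighbouring cytosines at most 100 bp apart, each with a value in at least 4 libraries of every group compared, were joined into regions of at least 3 cytosines. Among the 10 genes there were 38 regions for the F0 groups, 19 for F1 sperm and 54 for brain, and 59 different regions once these sets and that of control F0 sperm with brain were merged. Regions are numbered along each gene in the direction of transcription, so that Dnmt1 region 2 is the second of Dnmt1. A library's region value was adjusted for the cytosines it missed, which can carry it slightly below 0% or above 100%.

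Sequences of 5 regions are shown as reference sequence (GRCm38, forward strand, from the RefSeq genome), with the CpGs that were measured on either strand in capitals. Mbd4 region 1 stands for the unmethylated gene starts, at chr6:115853428-115853484, 57 bp upstream of Mbd4 and inside the annotated span of its neighbour Ift122. Dnmt1 region 2, Dnmt3a region 5 and Tet1 region 6 had the largest differences between F0 sperm and brain, and Tet2 region 3 had the largest difference between brain groups, one that did not pass its test. Dnmt1 region 2, chr9:20958779-20958896, lies in a Dnmt1 intron near the gene's annotated start. Tet1 region 6, chr10:62879698-62879880, lies in coding sequence close to the start of transcript Tet1-201. Dnmt3a region 5, chr12:3842955-3843087, and Tet2 region 3, chr3:133518219-133518312, are intronic and far from any start.
Mbd4 region 1: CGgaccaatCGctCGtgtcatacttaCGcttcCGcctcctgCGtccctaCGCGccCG
Dnmt1 region 2: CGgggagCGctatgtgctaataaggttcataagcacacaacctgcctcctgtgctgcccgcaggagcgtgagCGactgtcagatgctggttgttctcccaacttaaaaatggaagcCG
Tet1 region 6: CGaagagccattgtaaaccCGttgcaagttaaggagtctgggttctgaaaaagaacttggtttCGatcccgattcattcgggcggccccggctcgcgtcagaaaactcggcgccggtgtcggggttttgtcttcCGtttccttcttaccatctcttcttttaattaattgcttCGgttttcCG
Dnmt3a region 5: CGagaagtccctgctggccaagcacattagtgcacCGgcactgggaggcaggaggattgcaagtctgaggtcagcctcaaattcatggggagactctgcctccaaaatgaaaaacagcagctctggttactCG
Tet2 region 3: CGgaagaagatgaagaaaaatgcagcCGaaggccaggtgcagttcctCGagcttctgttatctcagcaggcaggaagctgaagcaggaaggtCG
The Mbd4 stretch holds 9 CpGs in 57 bp, all measured, whereas the Dnmt3a stretch holds 3 in 133 bp and Tet2 region 3 holds 4 in 94 bp. In Tet1 region 6, 6 of 16 CpGs were measured and in Dnmt1 region 2, 4 of 6.

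The tables give percents without read counts, so the depth behind a value is unknown, and the number of positions with a value stands in for it. Libraries covered 800578 to 1855546 positions in F0 sperm (median 1208256), 510212 to 1429060 in F1 sperm (1090027) and 1332684 to 1711088 in brain (1552105). Of the 112 libraries, 19 stood apart, with over 5% of partly methylated regions more than 20 points from the median of their tissue. They were 12 of F0 sperm, column 3 of control WT F1 sperm (15.6%), column 6 of control WT brain (6.41%), columns 1 and 8 of smoked WT brain (6.80% and 11.9%) and columns 2, 4 and 5 of smoked Nrf2-/- brain (13.7%, 10.1% and 8.28%), and results that rest on them are also given without them. Libraries are named by their column because no label ties a column to a sample. In the column headings the library numbers of F0 sperm, F1 sperm and brain form separate series, which cannot be told apart from tissue or generation. The library numbers in the column headings run through all Nrf2-/- libraries before all WT libraries, in F0 sperm and in brain, so that genotype and library order cannot be told apart. The numbers alternate between groups in sets of 5 for the WT groups of F0 sperm and, within each genotype, in sets of 4 in brain. The tissue labels were checked on promoters of maternally imprinted genes (5 of 11 listed were measured in F0 sperm, 6 in brain), which lay at 0.472% to 4.79% in F0 sperm libraries, 19.4% to 35.1% in control WT brain, 9.12% to 37.6% in smoked WT brain, 22.9% to 40.5% in control Nrf2-/- brain and 10.5% to 34.7% in smoked Nrf2-/- brain. Promoters of germ cell genes (6 of 7 measured) lay at 0.312% to 2.74% in F0 sperm and 71.2% to 86.01% in brain. The exception was column 8 of smoked WT brain, at 32.98%, where Ddx4 was the only gene of that list with a value. In F1 sperm 5 of 11 imprinted and 2 of 7 germ cell genes were measured, each with group means under 10%. At single genes, libraries of sons of smoked sires reached 16.4% at Peg10 and 14.2% at Nap1l5. Single F0 sperm libraries also reached 16.2% at Peg10 (control WT) and 14.9% at Sycp1 (recovery 1), above the F0 sperm ranges given here, which average over each list.

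Of the 10 genes, 9 held stretches that were nearly free of methylation in every group. Of the 59 regions, 23 had a mean under 10% in every group with at least 2 libraries, the highest such mean being 6.36%, and 21 of these lay within 1000 bp of an annotated transcript start. Another 17 regions, in 7 genes, were at 80% or more in every group, and 3 of them lay that close to a start, namely Tet1 region 1, Tet3 region 1 and Dnmt1 region 6. The other 19 were at intermediate levels or differed between tissues, and 5 of them lay near a start. The median ratio of observed to expected CpGs was 0.827 in the low regions, 0.598 in the high and 0.515 in the rest. The plot of group means by region shows this division, with the low regions forming dark bands across sperm and brain, broken where a group lacks values.

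**Figure D1:**
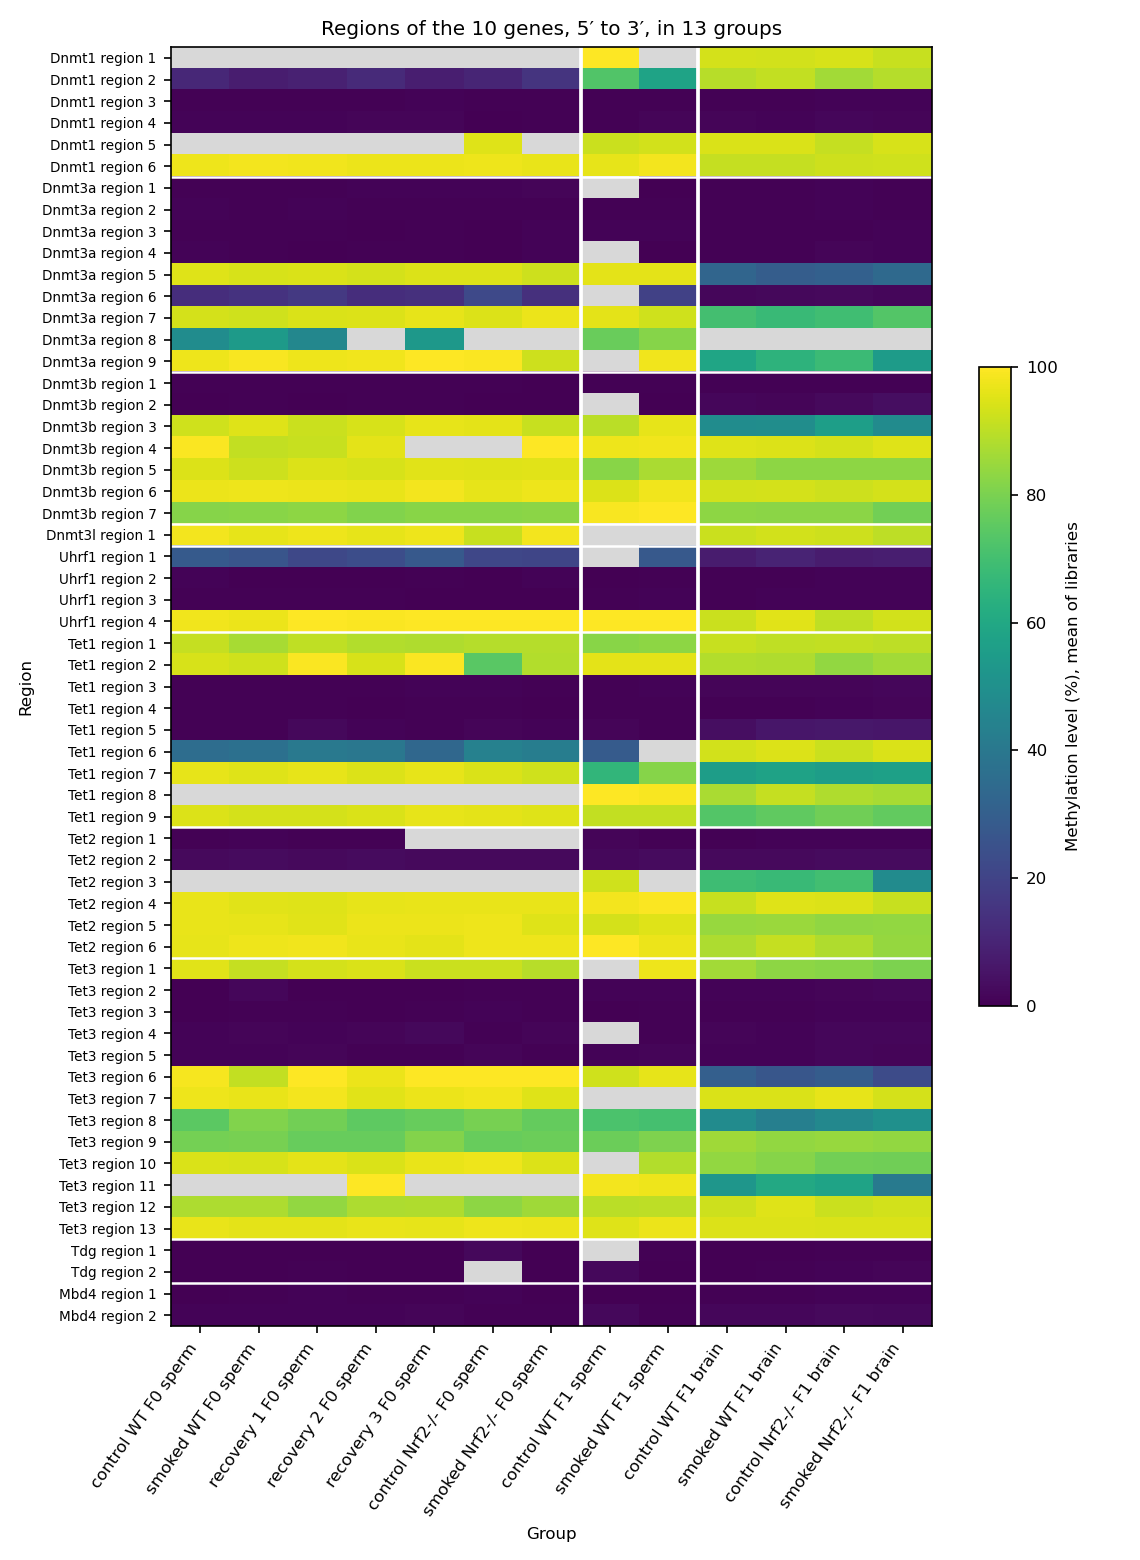
Mean methylation percent (colour scale from dark at 0 to yellow at 100) of each of the 59 regions (rows, in order along each gene) in the 13 groups (columns), with grey where fewer than 2 libraries had a value and white lines between genes and between F0 sperm, F1 sperm and F1 brain. The 23 low regions are dark wherever they have a value, whereas Dnmt1 region 2, Tet1 region 6 and Dnmt3a region 5 change colour between F0 sperm and brain.

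Among the writers, Dnmt1, the maintenance enzyme, had 2 low regions at internal starts, Dnmt1-203 and Dnmt1-207, with group means of 0.343% to 1.74%. Upstream of its annotated start, Dnmt1 region 1 was methylated, at 93.7% in control WT brain (lowest 80.6, median 96.1, highest 100, n = 7). Dnmt3a, a de novo enzyme, had 4 low regions within about a kilobase of its starts Dnmt3a-201 and Dnmt3a-218, at 0.137% to 1.25%. Dnmt3b, the other de novo enzyme, began in a 384 bp region of 66 cytosines. That region averaged 0.418% in control WT F0 sperm (n = 8, highest 1.12) and 0.507% in control WT brain (n = 8, highest 1.12), so the tissues overlapped. Dnmt3l, the germ cell cofactor, had no region at its start. Its only region, 1956 bp into transcript Dnmt3l-202, averaged 98.1% in control WT F0 sperm (lowest 96.4, median 97.9, highest 100, n = 6) and 92.0% in control WT brain (86.1, 91.1 and 97.1, n = 8), and the libraries overlapped.

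Uhrf1, which recruits DNMT1, had 2 low regions past its start, at 0.0225% to 1.05%. Its upstream flank, Uhrf1 region 1, lay 455 bp before the start and was partly methylated. It stood at 28.3% ± 8.45 (SD, n = 8) in control WT F0 sperm, with libraries from 19.6 to 45.3 around a median of 28.8, and at 7.57% ± 3.31 (n = 8) in control WT brain, from 4.85 to 15.1 around 6.43. All sperm libraries were above all brain libraries. Means of the F0 groups ran from 20.9% to 28.3% and those of the brain groups from 7.53% to 9.79%.

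Among the erasers, Tet2 had a 365 bp region around its start Tet2-201 with group means of 2.25% to 2.82%, the narrowest spread of any low region of the TET genes. Tet3 had 4 low regions around its starts Tet3-203 and Tet3-201, at 0.0223% to 1.99%. The low regions of Tet1 were not at the start of the gene: they lay 21766 to 22938 bp inside it, from 94 to 1266 bp past the internal start of Tet1-207, while region 1, 681 bp past the start of Tet1-208, was at 82.1% to 91.4%. Of the glycosylases, Tdg and Mbd4 each had 2 low regions at or near their starts. The Mbd4 sequence printed above averaged 0.368% in control WT F0 sperm (lowest -0.0473, median 0.344, highest 0.994, n = 10) and 0.775% in control WT brain (0.19, 0.562 and 1.76, n = 8).

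Sperm and brain were then compared within the sons of control WT sires, which share their parents' strains. Tissue and library number series cannot be told apart in this comparison. Between these tissues 2 of the 15 regions that could be tested differed (limma's moderated test, adjusted p under 0.05 over all 30915 regions), against 55% of all regions. Both were higher in sperm, as were 25.7% of all regions, and 0 members were lower against 29.3%. The median difference over the 15 regions was -0.02 percentage points and over all regions -0.18, and 8 of the 15 were low regions. In members without a called region the largest difference was -0.19 points at Dnmt1 region 4, -3.29 at Dnmt3b region 5, 9.15 at Tet1 region 7, -1.03 at Tet3 region 9 and -0.40 at Mbd4 region 2 (limma adjusted p from 0.391 to 0.886), and Dnmt3l, Uhrf1 and Tdg had no region tested. F1 sperm was the sparsest tissue, so that most of the methylated regions had too few values to be tested.

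Dnmt3a region 7, chr12:3889470-3889592, lies in an intron 2136 bp before the start of Dnmt3a-205. Control WT F1 sperm libraries ranged from 89.8% to 98.4% around a median of 94.6 (mean 94.3 ± 3.63, n = 4). Control WT brain ranged from 62.3% to 75.7% around 69.9 (mean 70.2 ± 4.31, n = 8). The groups did not overlap, and sperm was 24.1 points higher (SE 2.41, limma adjusted p = 3.04e-06). The gap was uneven across its cytosines. At position 3889592 the means were 86.5% in sperm and 38.2% in brain. At the others sperm was at 100% and brain at 85.3% and 87.2%. The F0 groups lay at 92.7% to 97.0% and the other brain groups at 67.8% to 73.2%.

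Tet2 region 6, chr3:133486189-133486297, lies in coding sequence. The 5 sperm libraries ranged from 98.8% to 100% (mean 99.5 ± 0.522) and the 8 brain libraries from 81.9% to 91.7% around 88.4 (mean 87.6 ± 3.001). They did not overlap, and the difference was 11.9 points (SE 1.34, limma adjusted p = 5.09e-06). Dnmt3a region 5 entered this comparison only when the strands of a CpG were averaged, and it was then 62.6 points higher in F1 sperm (adjusted p = 1.04e-09), while Tet3 region 9 then passed in the other direction (-2.93 points, adjusted p = 0.0332). With cytosines joined up to 300 bp, 21 regions could be tested and 3 others were called, all lower in sperm. These were 2 stretches of Tet1, chr10:62813622-62813809 (-25.4 points, adjusted p = 1.37e-05) and chr10:62908044-62908250 (-24.8 points, adjusted p = 0.000662), and 1 of Dnmt1, chr9:20908277-20908401 (-4.64 points, adjusted p = 0.0168).

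Averaged over the cytosines measured in a gene window, 7 of the 10 windows that could be tested differed between the tissues of these sons. The promoter window ran from 2000 bp before to 500 bp after the start, and the body window from there to the gene's end. Among promoters, 1 of 2 members passed, against 35.3% of all, with Dnmt3b at 1.11% ± 0.376 (n = 4) in sperm and 0.459% ± 0.294 (n = 8) in brain (adjusted p = 0.0396), a difference of 0.65 points. The Tet2 promoter was at 3.13% ± 1.93 (n = 6) and 2.63% ± 1.60 (n = 8, adjusted p = 0.737). Among bodies, 6 of 8 passed, against 67.1% of all. These 6 rested on 14 measured cytosines in Tet2, 64 in Dnmt3a, 18 in Dnmt3b, 7 in Mbd4, 48 in Tet1 and 30 in Dnmt1. Higher in sperm were Tet2 (89.0% against 75.3%, adjusted p = 2.50e-08), Dnmt3a (24.3% against 16.4%, adjusted p = 1.97e-06) and Dnmt3b (89.05% against 83.7%, adjusted p = 0.0104). Lower in sperm were Mbd4 (2.89% against 14.8%, adjusted p = 1.39e-06), Tet1 (38.4% against 49.7%, adjusted p = 4.35e-05) and Dnmt1 (25.5% against 27.6%, adjusted p = 0.0379). Tet3 and Uhrf1 did not pass (adjusted p = 0.857 and 0.472). With the promoter window set at 1000 bp on either side of the start, the Tet1 promoter could also be tested, on 3 cytosines, and differed by -24.8 points, lower in sperm (adjusted p = 0.00114). Leaving out each library in turn left 5 to 7 windows called. The Tet2, Dnmt3a, Dnmt3b, Mbd4 and Tet1 bodies passed each time, whereas the Dnmt1 body did not pass without brain column 1, 2, 3, 5 or 6 or without sperm column 5 or 6, and the Dnmt3b promoter did not without brain columns 1 to 6 or sperm columns 4 to 6 (each left out singly).

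Far more regions could be compared when control WT F0 sperm stood in for F1 sperm. In that comparison tissue, generation, age, library number series and the CAST/EiJ chromosomes of the sons cannot be told apart. Between control WT F0 sperm and control WT brain, 23 of 46 regions differed by limma, 18 higher and 5 lower in sperm, and 22 to 25 differed when each library was left out in turn and 23 without all libraries that stood apart. Of all regions 60.6% differed, 34.2% higher and 26.4% lower in sperm. The median difference was 0.22 points over the members and 0.12 over all regions. In both groups 20 of the 46 were under 10%, with means of at most 2.44% in sperm and 3.70% in brain, and 2 of these passed by small amounts, Tet1 region 5 (0.384% against 3.70%) and Tet1 region 3 (0.541% against 1.32%). The 21 regions at 80% or more in sperm had brain means from 32.6% to 94.6%, and 16 of them were called lower in brain. They were picked by their high sperm level, which leaves little room for a higher brain level. The share among all regions picked in this way is not given here. The plot of control libraries shows 6 regions whose levels lay apart between these groups, with control WT F1 sperm beside them. Among these, Tet3 region 6 could not be tested.

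**Figure D2:**
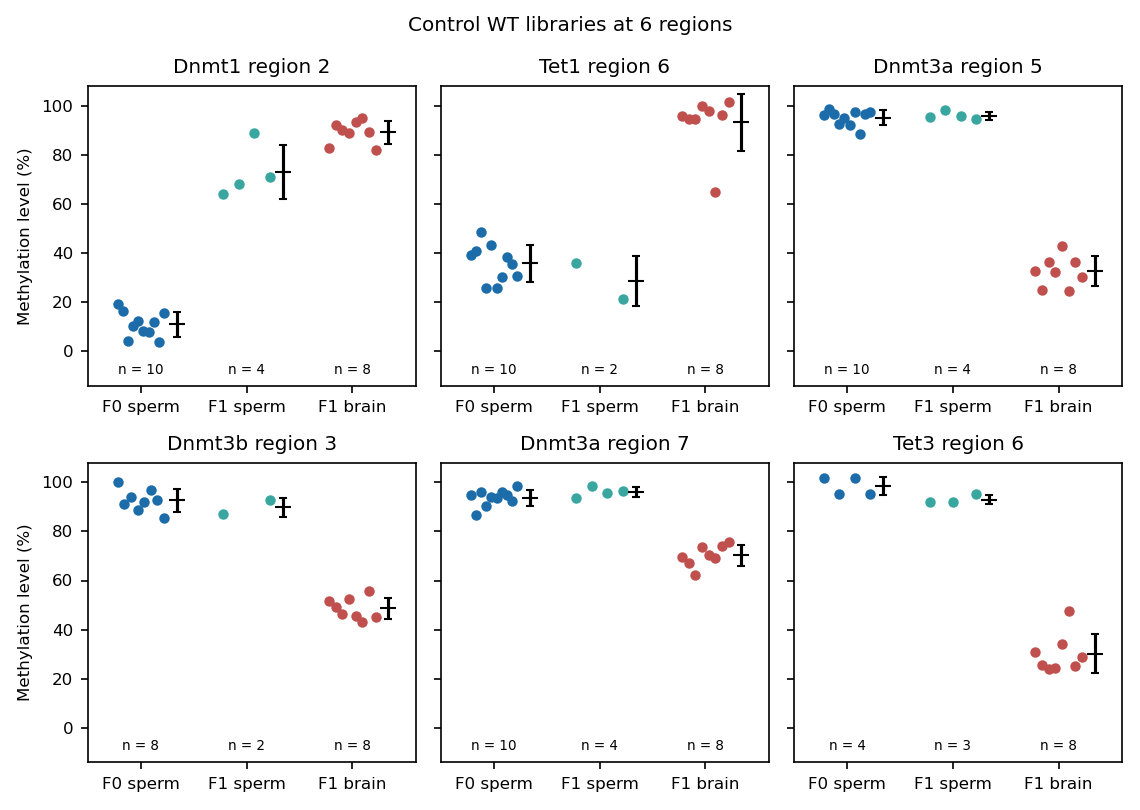
Methylation percent of each control WT library (points) in F0 sperm, F1 sperm and F1 brain at 6 regions, with the group mean and SD to the right of the points and the number of libraries under them. Dnmt1 region 2 and Tet1 region 6 are lower in F0 sperm than in brain and the other 4 regions are higher, and in these panels F1 sperm lies near F0 sperm except at Dnmt1 region 2, where its 4 libraries are at 63.9% to 88.9%.

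Dnmt1 region 2, whose sequence stands above, had the largest difference. It lies 992 bp inside Dnmt1, between the annotated start and the unmethylated internal starts. Control WT F0 sperm ranged from 3.85% to 19.5% around a median of 11.2 (mean 11.1 ± 5.17, n = 10), and control WT brain from 81.9% to 95.1% around 89.8 (mean 89.2 ± 4.71, n = 8). Sperm was 78.2 points lower (SE 2.28, limma adjusted p = 5.45e-16) with no overlap. Each of its 4 cytosines showed it, with means of 3.31% to 16.7% in sperm and 83.7% to 97.0% in brain. The 7 F0 groups had means of 8.006% to 14.9% and the 4 brain groups 86.3% to 91.01%.

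F1 sperm did not lie with F0 sperm at Dnmt1 region 2. The 4 control WT F1 sperm libraries with a value ranged from 63.9% to 88.9% (mean 73.0 ± 10.97), and the 5 of smoked WT sires from 50.0% to 63.1% (mean 58.1 ± 5.02). These are above every F0 sperm library, of which the highest stood at 29.9%. Control WT F1 sperm overlapped brain, sperm of sons of smoked sires lay below every brain library, and too few F1 sperm libraries had values at each cytosine for the region to enter a test. Strain of the mother, age, generation and library number series cannot be told apart here. The imprinted and germ cell promoters measured in F1 sperm, given above, were few, and their bearing on this region was not tested.

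Tet1 region 6 was also lower in sperm. It lies 134 bp into transcript Tet1-201, among 16 CpGs, with 1.41 times the CpGs expected from its base content. Control WT F0 sperm ranged from 25.99% to 48.5% around 38.8 (mean 37.2 ± 8.45, n = 10). Brain ranged from 62.7% to 98.0% around 94.6 (mean 91.0 ± 11.6, n = 8). The difference was -53.74 points (SE 4.55, limma adjusted p = 4.99e-09), and leaving out each library in turn gave -57.8 to -52.5. The lowest brain library was column 6, one of those that stood apart, and without it the difference was -57.8 points. The region's values shift slightly between comparisons, because cytosine means are taken over the groups compared. The 2 control WT F1 sperm libraries with a value were at 21.5% and 35.9% and the only one of smoked sires at 43.6%, so that here F1 sperm lay with F0 sperm.

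Dnmt3a region 5 differed most in the other direction. Control WT F0 sperm ranged from 88.6% to 98.6% around 96.3 (mean 95.1 ± 3.08, n = 10), and brain from 24.8% to 42.8% around 32.4 (mean 32.6 ± 6.07, n = 8). The difference was 62.5 points (SE 2.13, limma adjusted p = 5.75e-15) with no overlap. F1 sperm was at 95.9% ± 1.67 (n = 4) in sons of control and 96.1% ± 2.57 (n = 7) in sons of smoked sires, close to F0 sperm, and the 4 brain groups lay at 29.7% to 34.3%.

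Dnmt3b region 3, in coding sequence, was at 92.6% ± 4.55 (n = 8, 85.5 to 100) in F0 sperm and 48.7% ± 4.35 (n = 8, 43.2 to 55.8) in brain, 43.9 points apart (SE 2.14, limma adjusted p = 1.26e-11). Its 2 control WT F1 sperm libraries stood at 87.0% and 92.6%. Dnmt3a region 7, described above for the sons, was 23.4 points higher in F0 sperm (adjusted p = 7.30e-10). Of the 18 regions higher in F0 sperm, Dnmt3a region 6 and Uhrf1 region 1, described above, were not at 80% or more in sperm. Dnmt3a region 6 was at 13.5% ± 1.28 (n = 5) in F0 sperm and 1.51% ± 1.85 (n = 8) in brain (adjusted p = 7.41e-08).

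Tet1 region 7, in an intron, was at 96.2% ± 2.05 (n = 10, 93.8 to 100) in F0 sperm and 55.7% ± 4.92 (n = 8, 51.2 to 65.4) in brain, a difference of 40.5 points (SE 1.65, limma adjusted p = 9.43e-14). In control WT F1 sperm the same region spread from 21.01% to 93.3% around 67.4 (mean 66.003 ± 27.1, n = 6), and in sons of smoked sires from 60.6% to 90.8% around 86.7 (mean 82.0 ± 11.6, n = 7). All 13 F1 sperm libraries were below every control WT F0 library. Within the sons of control sires the sperm to brain difference at this region was 9.15 points and did not pass (SE 10.04, adjusted p = 0.486). Without column 3 of control WT F1 sperm, which stood apart, it was 19.3 points and passed (adjusted p = 0.0163).

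Other methylated regions were also lower in brain, among them Tet1 region 9 (21.8 points higher in sperm, adjusted p = 1.30e-07), Tet2 region 5 (12.2 points, adjusted p = 4.85e-06) and Dnmt3b region 5 (9.36 points, adjusted p = 3.67e-07), all in coding sequence. Of these 3 regions, the libraries overlapped at Tet2 region 5. Within the sons of control sires, Dnmt3b region 5 went the other way, at -3.29 points, and did not pass. Tet3 region 6, an intronic region that neither comparison could test, stood at 92.9% ± 1.84 (n = 3) in control WT F1 sperm, 96.2% ± 3.31 (n = 7) in sperm of sons of smoked sires, and 30.2% ± 7.91 (n = 8, 24.2 to 47.7) in control WT brain.

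Whether CS changed these genes in the sperm of exposed males was asked against control WT F0 sperm. By limma, 0 of 38 regions passed in smoked WT F0 sperm (2 at an unadjusted p under 0.05), against 0.00159% of all 62831 regions called and 3.91% at an unadjusted p under 0.05. The median difference of the members was -0.06 points and of all regions -0.15. The member differences ran from -4.66 to 2.67 points. The smallest p belonged to Tet1 region 1, in an intron of Tet1. Smoked WT libraries ranged from 73.8% to 92.7% around 89.2 (mean 87.0 ± 6.12, n = 9) and control WT from 89.5% to 96.6% around 91.4 (mean 91.6 ± 2.17, n = 10). The groups overlapped, and the difference was -4.66 points (SE 1.61, limma adjusted p = 0.9998). It was -0.765 points with cytosines joined up to 300 bp apart, which adds other cytosines, and between -5.38 and -3.02 when each library was left out in turn, the last without smoked WT column 4.

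After smoke had ended, 0 of 38 regions passed at recovery 1 (2 at an unadjusted p under 0.05, against 0% of all regions called), 0 at recovery 2 (1 unadjusted, against 0.00637%) and 0 at recovery 3 (2 unadjusted, against 0.043%). Of all regions, 5.28%, 4.15% and 6.31% had an unadjusted p under 0.05 at the 3 times. Control WT males were collected before these groups, so that age and recovery cannot be told apart. At recovery 1 the smallest p was that of Tet2 region 4, at 94.95% ± 1.90 (n = 9, 91.4 to 97.7) against 96.8% ± 1.72 (n = 10, 94.6 to 100), a difference of -1.88 points (limma adjusted p = 0.936). At recovery 2 it was Tet1 region 1 again, at 87.5% ± 3.19 (n = 10, 82.6 to 93.0), or -4.16 points (limma adjusted p = 1.0), and -1.97 points with joining up to 300 bp. At recovery 3 it was Tet3 region 4, around the start Tet3-203. Its tested part, chr6:83456064-83456352, was at 1.91% ± 1.11 (n = 9, 0.809 to 3.79) against 0.437% ± 0.500 (n = 8, 0 to 1.58), or 1.47 points higher (SE 0.42, limma adjusted p = 0.405). In all these pairs the libraries of the groups overlapped. The comparisons share the control WT libraries and are not independent of each other.

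Loss of NRF2 gave the same count. By limma 0 of 38 regions passed in control Nrf2-/- against control WT F0 sperm (2 at an unadjusted p under 0.05), where 0.409% of all regions were called. In smoked Nrf2-/- against control WT 0 passed (5 unadjusted, against 0.357%), and in smoked against control Nrf2-/- 0 passed (3 unadjusted, against 0.00637%). In the same order, 7.83%, 7.90% and 5.75% of all regions had an unadjusted p under 0.05. Tet1 region 1 had the smallest p in control Nrf2-/- sperm, at 88.01% ± 2.499 (n = 10, 84.3 to 93.4), or -3.63 points from control WT (limma adjusted p = 0.521). Joining cytosines up to 300 bp apart turned its sign. In smoked Nrf2-/- sperm it was Tet1 region 7, at 92.9% ± 3.17 (n = 9, 86.9 to 99.1) against 96.2% ± 2.05, or -3.30 points (limma adjusted p = 0.443). Between the Nrf2-/- groups it was Tet2 region 5, at 95.1% ± 2.88 (n = 9, 89.8 to 99.1) against 97.4% ± 2.06 (n = 10, 93.9 to 100), or -2.30 points (limma adjusted p = 0.738). The largest differences from control WT in size were those of Tet1 region 6, which was 8.02 points higher in control and 6.51 points higher in smoked Nrf2-/- sperm, in groups whose SDs were 13.1 and 10.95 points (adjusted p = 0.666 and 0.774). Without the libraries that stood apart these were 9.97 and 10.6 points (adjusted p = 0.719 and 0.580). Whether CS acted differently by genotype was tested as an interaction, and 0 of 38 regions passed (1 at an unadjusted p under 0.05), against 0% of all regions called and 4.19% at an unadjusted p under 0.05. Tet1 region 1 had the smallest p, with an interaction of 4.87 points (limma adjusted p = 0.9999). It ran from 1.12 points with cytosines joined up to 300 bp apart to 5.58 points over the alternatives on the percent scale.

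In the sperm of sons, 0 of 19 regions passed between smoked WT and control WT sires by limma (2 at an unadjusted p under 0.05), against 0% of all 33449 regions called and 5.38% at an unadjusted p under 0.05. The median difference was -0.11 points over the members and 0.27 over all regions. Tet2 region 6 had the smallest p. Sons of smoked sires ranged from 95.3% to 100% around 96.5 (mean 97.1 ± 1.64, n = 7), and the 5 control libraries from 98.8% to 100.9% around 99.4 (mean 99.7 ± 0.793). They overlapped, with a difference of -2.56 points (SE 0.82, limma adjusted p = 0.902). The largest difference in size was that of Tet1 region 7, 15.97 points higher in sons of smoked sires (SE 10.7, adjusted p = 0.902), of which column 3 of the control group, at 21.01%, was the lowest library. Without this library, which stood apart, the difference was 6.97 points (SE 7.96, adjusted p = 0.991).

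In brain, 0 of 54 regions passed in each comparison by limma. The counts at an unadjusted p under 0.05 were 2 in sons of smoked WT sires (against 0.00124% of all 80920 regions called), 8 in sons of control Nrf2-/- sires (0.0124%) and 5 in sons of smoked Nrf2-/- sires (0.0198%), each against control WT. Between smoked and control Nrf2-/- sires the count was 4 (0.00124%). In the same order, 4.16%, 7.77%, 10.42% and 9.63% of all regions had an unadjusted p under 0.05. The plot of differences shows the members close to 0 in each comparison, except for a few regions of intermediate level. Without the libraries that stood apart, 0 member regions passed in any of these comparisons or in those within sperm.

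**Figure D3:**
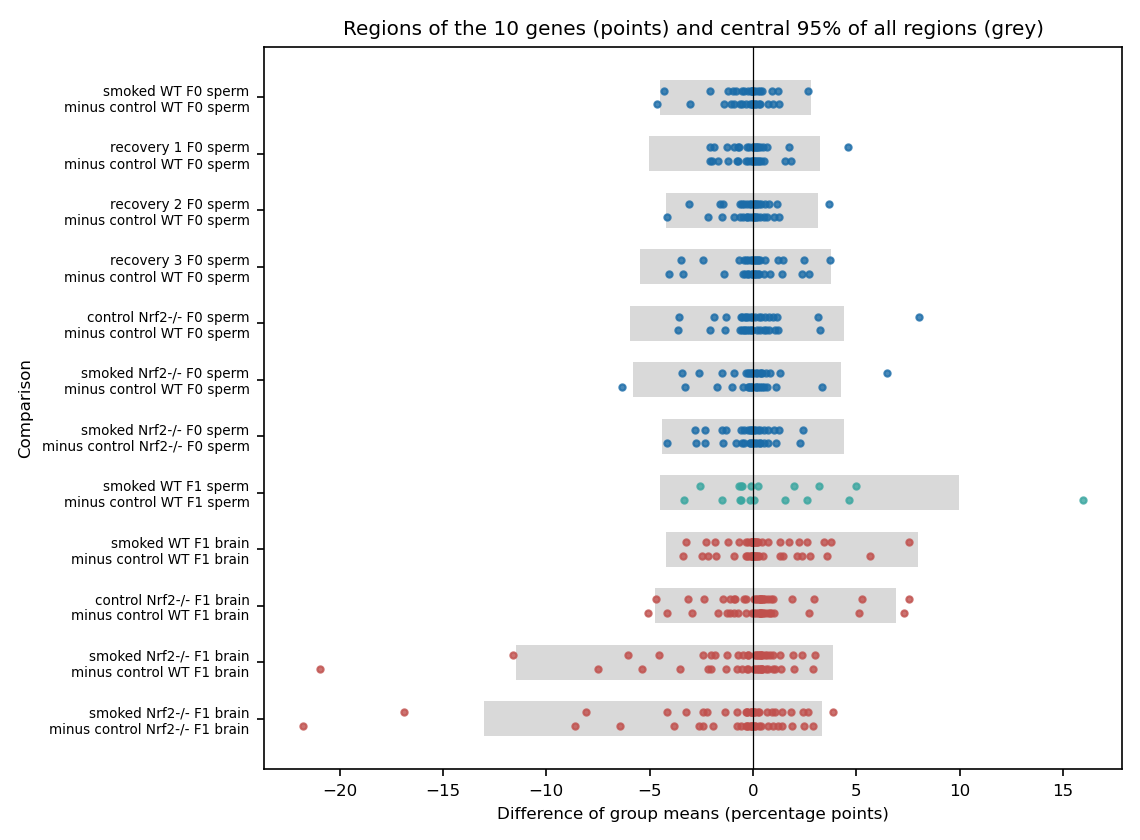
Difference of group means in percentage points (horizontal axis) for each member region (points) in the 12 comparisons by exposure or genotype (vertical axis), with the central 95% of all regions as grey bars and F0 sperm, F1 sperm and brain in different colours. Tet2 region 3, at -20.9 and -21.8 points in sons of smoked Nrf2-/- sires, lies farthest below 0, and Tet1 region 7, at 15.97 points in F1 sperm, farthest above.

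Tet2 region 3, the fifth sequence printed above, had the smallest p in both comparisons that involved smoked Nrf2-/- sires. It lies in a Tet2 intron, 26827 bp from the gene's start. Control WT brain ranged from 60.2% to 83.0% around 68.9 (mean 69.03 ± 7.66), smoked WT from 36.2% to 86.7% around 71.5 (mean 67.8 ± 14.6), control Nrf2-/- from 50.8% to 93.0% around 68.5 (mean 69.9 ± 12.2) and smoked Nrf2-/- from 28.1% to 65.2% around 52.7 (mean 48.1 ± 14.5; n = 8 each). The last group was the lowest on average but overlapped each of the others. It was 20.9 points under control WT (SE 6.17, unadjusted p = 0.00202, limma adjusted p = 0.369) and 21.8 points under control Nrf2-/- (unadjusted p = 0.00142, limma adjusted p = 0.284). Only 2 control WT F1 sperm libraries had a value, at 92.4% and 93.4%.

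**Figure D4:**
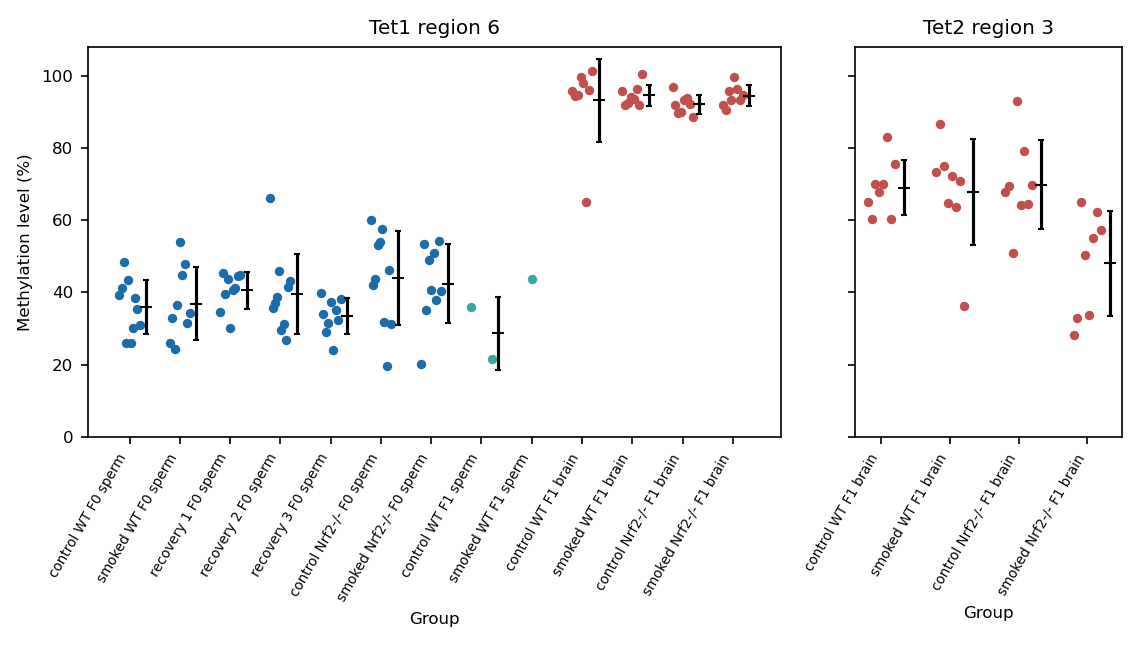
Methylation percent of single libraries (points), with group mean and SD beside them, at Tet1 region 6 in the 13 groups and at Tet2 region 3 in the 4 brain groups. At Tet1 region 6 all sperm libraries are at or below 66.2%, and at Tet2 region 3 the smoked Nrf2-/- group has the lowest mean, 48.1%, and overlaps the other groups.

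The difference was not even across the 4 cytosines of Tet2 region 3. At the first, position 133518219, the means were 50.1% and 49.6% for control and smoked WT sires, and 49.3% and 18.4% for control and smoked Nrf2-/- sires. At the last, position 133518312, they were, in the same order, 75.1%, 87.04%, 81.9% and 82.9%, with 4 to 6 libraries a group. Columns 2, 4 and 5 of smoked Nrf2-/- brain stood apart from their tissue, and imprinted promoters were lower in that group, at a median of 18.8% against 29.5% in control WT and 30.7% in control Nrf2-/- brain. Their part in the result was not tested. Without all libraries that stood apart the differences were -13.4 points from control WT (adjusted p = 0.916) and -16.3 points from control Nrf2-/- (adjusted p = 0.666).

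In sons of smoked WT sires the smallest p was that of Tet2 region 4, another intronic region, at 95.2% ± 1.64 (91.4 to 96.4) against 91.8% ± 3.20 (87.2 to 98.4, n = 8 each), or 3.44 points higher (SE 1.29, limma adjusted p = 1). In sons of control Nrf2-/- sires it was Tet1 region 5, one of the low regions, at 6.36% ± 2.34 (3.42 to 10.1) against 3.64% ± 1.84 (1.37 to 6.28, n = 8 each), or 2.71 points higher (SE 0.96, limma adjusted p = 0.640). The groups overlapped in both. Dnmt3b region 3 was 7.55 points higher in sons of control Nrf2-/- sires (56.2% ± 6.11 against 48.7% ± 4.35, unadjusted p = 0.00981, limma adjusted p = 0.640).

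A rule by size alone, with at least 0.333 of a region's cytosines and their mean changed by over 5 points, has no test and counts noisy regions too. In F0 sperm it counted 1 member in smoked WT (against 2.61% of all regions), 0 at recovery 1 (3.4%), 0 at recovery 2 (2.53%), 0 at recovery 3 (4.1%), 1 in control Nrf2-/- (5.1%) and 2 in smoked Nrf2-/- sperm (4.93%), each against control WT, and 0 between the Nrf2-/- groups (3.73%). In F1 sperm it counted 1 (13.1%). In brain it counted 2 in sons of smoked WT (8.33%), 3 of control Nrf2-/- (7.53%) and 4 of smoked Nrf2-/- sires (13.6%) against control WT, and 5 between the Nrf2-/- groups (16%). Between control WT F1 sperm and brain it counted 3 of 15 (53.5%). The members counted in sons of smoked Nrf2-/- sires against control WT were Tet2 region 3 and 3 regions of Tet3, the TET enzyme of oocytes and neurons. The differences were -11.6 points at Tet3 region 11, in coding sequence, -7.50 at region 6 and -5.39 at region 10, and 0 of these passed limma's test. Without the libraries that stood apart the differences were 0.764, -2.03 and -4.74 points, so that Tet3 region 11 turned its sign.

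In the interaction of CS and genotype in brain, 0 of 54 regions passed (6 at an unadjusted p under 0.05), against 0% of all regions called and 9.42% at an unadjusted p under 0.05, the smallest p being that of Tet2 region 4 (-6.65 points, limma adjusted p = 0.279). The Tet2 body window held 80 cytosines in brain, against 14 where brain was compared with F1 sperm. It stood at 33.4% ± 0.861 and 34.5% ± 1.24 in sons of control and smoked WT sires. In sons of control and smoked Nrf2-/- sires it stood at 33.4% ± 0.828 and 31.9% ± 1.37 (n = 8 each). The interaction was -2.62 points (SE 0.80, limma adjusted p = 0.146). Without column 8 of smoked WT brain, which stood apart, it was -2.98 points and passed (adjusted p = 0.0331). The other brain libraries that stood apart, among them those of smoked Nrf2-/- sires, were kept in that fit. The share of all bodies called in it is not given here, so this call cannot be set against its background. With all libraries, the median interaction over all bodies was -1.38 points, and 17.5% of them had an unadjusted p under 0.05 by limma. Windows were not fitted without all the libraries that stood apart.

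Whole gene windows otherwise gave the same count as regions. By limma, 0 promoter and 0 body windows of the members passed in the 12 comparisons by exposure or genotype and in the 2 interactions. Among all promoters 0.0828% were called in control and 0.135% in smoked Nrf2-/- F0 sperm against control WT, 0.00739% in F1 sperm, 0.0096% in control and 0.0096% in smoked Nrf2-/- brain against control WT, and 0% elsewhere. Among all bodies 0.0152% were called at recovery 3, 0.456% in control and 0.38% in smoked Nrf2-/- F0 sperm against control WT, 0.00938% in brain of smoked against control Nrf2-/- sires, 0.00938% in the brain interaction, and 0% elsewhere. At an unadjusted p under 0.05 there were 3 of 5 member promoters at recovery 1 (against 5.27% of all promoters), 2 of 5 at recovery 2 (4.52%) and 2 of 10 bodies between smoked and control Nrf2-/- sires in brain (16.4% of all bodies), and at most 1 promoter and 1 body in any other comparison. The recovery groups share their control libraries. Beside Tet2, these were the Uhrf1 promoter, at -2.89 points from control at recovery 1 and -2.73 points at recovery 2, and the Mbd4 promoter, at 1.03 points above control at recovery 1 (limma adjusted p = 0.917, 1.0 and 0.917). Of these promoters, Tet2 had the smallest p in smoked WT F0 sperm. The Tet2 promoter was there at 0.860% ± 0.629 (n = 9, 0 to 1.95) against 2.65% ± 1.63 (n = 10, 0.819 to 5.22) in control WT F0 sperm. The difference over 8 cytosines was -1.79 points (unadjusted p = 0.00291, limma adjusted p = 0.999). The 3 recovery groups were at 1.12%, 1.495% and 1.30% and smoked Nrf2-/- sperm at 0.969%, each below the shared control group at an unadjusted p under 0.05, with adjusted p of 0.917, 1.0, 0.808 and 0.481. Control Nrf2-/- sperm stood at 1.88% (unadjusted p = 0.177, limma adjusted p = 0.835). In all these the libraries overlapped. In brain the Tet1 promoter window held only 3 cytosines. It stood at 86.3% ± 7.27 (n = 7) in sons of smoked WT and 75.3% ± 8.92 (n = 6) in sons of control WT sires (unadjusted p = 0.0103, limma adjusted p = 1.0). Sons of control and smoked Nrf2-/- sires were also above this shared control group, at 82.95% ± 7.49 (n = 8, unadjusted p = 0.0583) and 84.4% ± 4.64 (n = 6, unadjusted p = 0.0363), with limma adjusted p of 0.304 and 0.301. Only 2 members had a promoter window measured in all 13 groups. Tet2 had the wider range of group means, from 0.718% in smoked Nrf2-/- F0 sperm to 3.13% in control WT F1 sperm (4 cytosines), and Dnmt3b spanned 1.05 points. Among 12101 promoters measured in all groups, those whose 13 group means lay nearest to Tet2 by root mean square difference were Gm42567 (0 points), whose window overlaps that of Tet2 and holds the same cytosines, Selenok (0.409) and Arc (0.441).

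Other genes of DNA methylation were counted from a list of 42: readers of methylated CpGs, repair and demethylation factors, maintenance and chromatin partners, germ line targeting factors, methyl donor enzymes and the RNA methyltransferase of the DNMT family. By limma 0 of them passed in the 12 comparisons by exposure or genotype, among 17 to 33 promoters and 29 to 39 bodies tested, with 0 to 6 promoters and 0 to 9 bodies at an unadjusted p under 0.05. The 6 of 33 promoters (18.2%, against 16.3% of all promoters) were in brain of smoked Nrf2-/- against control WT sires, and the 9 of 39 bodies (23.1%, against 16.4% of all bodies) in brain of smoked against control Nrf2-/- sires. Of 30 promoters in F0 sperm, 3 were counted at recovery 1 (against 5.27% of all), 4 at recovery 2 (4.52%) and 4 at recovery 3 (5.62%), with shared controls. There were 0 in smoked WT (4.31%), 1 in control Nrf2-/- (6.74%) and 1 in smoked Nrf2-/- sperm (6.44%) against control WT. Between the Nrf2-/- groups there were 2 (4.97%). Between control WT F1 sperm and brain, 2 of 17 promoters were higher and 4 lower in sperm, against 35.3% of all promoters called, and 11 of 26 bodies were higher and 8 lower, against 67.1% of all bodies. The lower promoters were led by Tex19.1, at 8.37% in sperm against 94.5% in brain (adjusted p = 5.55e-17), and Piwil2, at 15.5% against 94.0% (adjusted p = 1.25e-13), a germ cell gene and the gene of a PIWI protein that guides methylation to transposons. Gadd45b, a DNA repair and demethylation factor, was at 6.27% against 17.5% (adjusted p = 1.94e-06).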

How the data were processed

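RRBS libraries from F0 sperm, F1 sperm and F1 prefrontal cortex were analysed from tables of cytosine methylation. The deposited values are the percent of reads methylated at each CpG cytosine, which the authors made with Bismark on mm10 from 50-cycle single reads after digestion with MspI and TaqαI. The authors scored only CpGs with over 8 reads in at least 4 replicates, but whether the deposited values were so filtered, and the Bismark version, are not given in the sources used here. No read counts were given, so that no binomial interval could be set and counting error at single cytosines is part of the spread. Columns name groups but not samples, and each was taken as a library of its group. No columns were left unused (0). Within a group, no pair of libraries held matching values, since on chromosome 19 the 436 pairs shared 0.95% to 5.24% of their intermediate values.

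Cytosines with a value in at least 4 libraries of every group in a fit were joined at gaps of up to 100 bp into regions of at least 3 cytosines and over 50 bp. A library's region value was its mean deviation from the cytosine means plus the region mean, where at least 50% of cytosines had a value. Groups were compared with limma 3.58.1 in R 4.3.3 (moderated test, all F0, all brain or both F1 sperm groups in a fit, at least 2 values a group), with Benjamini-Hochberg adjustment over all regions or windows and a threshold of 0.05. Regions were also counted by size, where at least 0.333 of cytosines and their mean changed by over 5 points. Windows and transcript starts came from the full GENCODE vM21 set and exons from its basic set. By rule, the regions named were in each comparison those called and that of smallest p, and of each member the one nearest the gene start and that of largest difference between sperm and brain of control sons. Other regions and windows were named after their values were seen. Scripts ran in Python 3.11.15 with numpy 2.4.6 and pandas 2.3.3 and were tested on simulated data. Alternatives changed the library minimum, the joining gap, the scale, the strand handling, the promoter window and the libraries used, and, added after seeing the data, blocked by sets of neighbouring library numbers. The members, gene lists and tests were chosen with earlier results of these data known. The labels give replicates of a group but not which sons shared a sire, nor whether sperm and brain came from the same sons, so p-values measure the spread between these libraries.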

Additional observations from a re-analysis of the deposited data

Results flagged for a closer look

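Of 147 sets of 4 to 10 libraries of a group at a described region, 18 (12.2%) held a library far from the others by Dixon's test. For normally spread values chance gives about 1 in 20. Percents close to their limits, and libraries that share a value, need not keep to that rate, so no excess is read from the count. In F0 sperm these were, at Dnmt3a region 5, recovery 3 column 3 (87.0%, others 93.0% to 98.1%) and smoked Nrf2-/- column 3 (81.3%, others 91.5% to 96.7%). At Dnmt3b region 3, recovery 3 column 6 stood at 87.3% (others 93.9% to 100%). At Uhrf1 region 1, control WT column 1 stood at 45.3% (others 19.6% to 31.1%). In Tet1, control WT column 7 was at 97.0% in region 1 (others 87.8% to 92.7%), recovery 2 column 1 at 66.2% in region 6 (others 26.7% to 45.9%) and smoked WT column 4 at 90.4% in region 7 (others 94.2% to 97.0%). In Tet2, control Nrf2-/- column 5 was at 91.5% in region 4 (others 96.1% to 99.2%) and smoked WT column 4 at 92.0% in region 6 (others 96.6% to 100%). At Tet3 region 6, smoked Nrf2-/- column 5 was at 98.4% while the others shared the value 101.6%.

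In F1 sperm the only such library was smoked WT column 1 at Dnmt3a region 5 (90.6%, others 95.5% to 98.3%). In brain, control WT column 6 was far from its group at 3 regions, namely Uhrf1 region 1 (15.1%, others 4.85% to 9.40%), Tet1 region 6 (65.1%, others 94.5% to 101%) and Tet3 region 6 (47.7%, others 24.2% to 34.3%). Smoked WT column 8 was far from its group at Tet2 region 3 (36.2%, others 63.5% to 86.7%) and Tet2 region 6 (101.8%, others 86.9% to 93.8%). The others in brain were smoked WT column 5 at Tet2 region 4 (91.4%, others 94.8% to 96.4%) and smoked Nrf2-/- column 5 at Tet2 region 6 (74.0%, others 81.6% to 88.1%). Of the libraries named here, 5 also stood apart from their tissue over all regions, namely control WT column 7 and recovery 3 column 3 in F0 sperm and control WT column 6, smoked WT column 8 and smoked Nrf2-/- column 5 in brain.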

How the results depend on the processing

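The count of 0 called member regions held for the within-tissue comparisons under every limma alternative run. By size instead of a test, the counts were 1 (smoked WT F0 sperm), 1 (control Nrf2-/- F0 sperm), 2 (smoked Nrf2-/- F0 sperm), 1 (F1 sperm) and, in brain, 2 (smoked WT), 3 (control Nrf2-/-), 4 (smoked Nrf2-/- against control WT) and 5 (against control Nrf2-/-). Between control F1 sperm and brain the count of 2 became 23 with F0 sperm in its place, 0 with at least 6 libraries a group (1 region could be tested), 5 with joining up to 300 bp (21 tested, 2 higher and 3 lower in sperm) and 4 with strands averaged (16 tested, 3 higher and 1 lower), and leaving out sperm column 2 added Tet3 region 9 (-2.66 points, adjusted p = 0.0481) and sperm column 3 added Tet1 region 7. The 7 called windows of that comparison became 3 with at least 6 libraries (6 tested, on fewer cytosines). Of these 3 only the Tet1 body (-18.6 points, adjusted p = 0.00768) was among the 7, and the others were the Tet3 body (-6.50 points, adjusted p = 0.000623) and the Uhrf1 body (6.54 points, adjusted p = 0.0131). Windows called in the brain interaction ranged from 0 to 1 when libraries were left out in turn, the 1 being the Tet2 body without smoked WT brain column 8. Joining up to 300 bp turned Tet1 region 1 in control Nrf2-/- F0 sperm to 0.869 points (adjusted p = 0.963), with other cytosines in the region. Over the alternatives on the percent scale, differences moved by over 1.5 times, without a call, at Tet2 region 4 in recovery 1 (-3.22 to -1.44 points), Tet1 region 1 in the F0 interaction (1.12 to 5.58), Tet3 region 4 in recovery 3 (0.581 to 1.84), Tet2 region 5 between the Nrf2-/- F0 groups (-3.70 to -0.738) and Tet1 region 5 in control Nrf2-/- brain (1.06 to 3.13). Moves of over 1.5 times without a call were also seen at Tet1 region 1 in smoked WT F0 sperm (-5.38 to -0.765) and recovery 2 (-4.77 to -1.97). So it was at Tet2 region 3 in brain of smoked Nrf2-/- against control WT sires (-23.4 to -13.4). Apart from leaving out libraries, 143 recomputed counts stayed within 1.5 times the main one and 133 recomputed differences of single regions kept direction and call. No paired analysis was possible because the columns carry no replicate number of the titles. Library numbers fall into sets, which no label calls a batch, and a block by these sets was added after seeing the data for the 4 WT comparisons of F0 sperm, for smoked against control sires of either genotype in brain and for their interaction. It left 0 member regions called in each. Deviations from the group means correlated at a median of -0.00201 within sets in F0 sperm and 0.0551 in brain (92 and 32 pairs). Depth is unknown, and the sparse F1 sperm libraries limit which regions could be tested.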
